A study of Mus musculus with 10 samples.

Results

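Cytochrome P450 enzymes were represented by 47 probe sets of 40 genes in 25 subfamilies, out of 12488 probe sets on the array. The members were the probe sets with 1 gene symbol in the platform annotation that begins with Cyp and a digit, and 7 further probe sets that carry several symbols, with a Cyp symbol among them, were left out. The data were scaled hybridisation intensities from 10 arrays of total RNA from mouse hepatocytes, in a study of the response to hypoxia in wild-type and HIF-1alpha null cells. There were 2 normoxic untreated arrays, 2 normoxic adeno-treated arrays, 3 hypoxic adeno-treated wild-type arrays and 3 hypoxic HIF-1alpha null arrays. HIF-1alpha is a transcription factor subunit that is stabilised in low oxygen and drives the main hypoxic response. The sample titles number the arrays of each group, N1 to N3 in the hypoxic groups and N1 and N2 in the normoxic groups, and the groups share these numbers. The labels used here do not name the adeno vector or say whether the null cells received it, how the gene was deleted or which genotype the normoxic cells had. Nor do they give the oxygen level and time, the age and strain of the mice or what the numbers stand for. They also do not say that the arrays came from separate cultures, so the p-values measure the spread between these arrays, which may be technical. Each group has 1 array of a number. For the comparisons of numbers, the spread is therefore how far the 2 hypoxic or the 2 normoxic groups differ in their change with the number.

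P450s are heme enzymes that use molecular oxygen, and electrons passed on by P450 reductase, to oxidise their substrates. In the liver, members of families 1, 2 and 3 oxidise drugs and other foreign compounds, members of family 4 oxidise fatty acids, and further families make or break down steroids, bile acids, vitamin D and retinoic acid. Many P450 genes are switched on by ligand-activated receptors: the aryl hydrocarbon receptor (AHR) for family 1, the receptors CAR and PXR for Cyp2b10 and family 3, PPARalpha for Cyp4a genes, and the retinoic acid receptors for Cyp26a1.

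Cyp1a1, Cyp26a1 and Cyp2b10 are shown with sequence before a transcription start, because they differed strongly between arrays and their regulation by a receptor is well known. The sequences are from RefSeq's GRCm38.p6 promoter table and run 5′ to 3′ on the gene's strand, with motif matches in capitals. Positions are counted from the transcript start in that table, and RefSeq's gene span begins 9685 bases before it for Cyp1a1 and 70 bases before it for Cyp26a1, so that these stretches lie within the annotated genes. For Cyp1a1 the capitals mark GCGTG, the core of AHR sites and also a form of the HIF core, from 54 to 50 bases before the start, and TATAAA, the TATA box, from 30 to 25 bases before it. For Cyp2b10 they mark GCGTG on the opposite strand (CACGC as printed), from 101 to 97 bases before the start, and on the gene's strand from 9 to 5 bases before it. Sites of CAR, the receptor named above for Cyp2b10, were not searched for. For Cyp26a1 they mark a retinoic acid direct repeat, a pair of AGTTCA sites with 5 bases between them, on the opposite strand from 32 to 16 bases before the transcript start, and only 30 bases around it are shown, which end 9 bases before that start.
Cyp1a1, chr9:57697363-57697612, plus strand: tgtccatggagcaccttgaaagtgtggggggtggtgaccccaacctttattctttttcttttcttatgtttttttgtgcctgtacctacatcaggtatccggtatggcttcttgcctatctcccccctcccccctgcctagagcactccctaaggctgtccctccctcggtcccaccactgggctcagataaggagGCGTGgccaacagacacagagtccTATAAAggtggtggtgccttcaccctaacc
Cyp2b10, chr7:25897408-25897657, plus strand: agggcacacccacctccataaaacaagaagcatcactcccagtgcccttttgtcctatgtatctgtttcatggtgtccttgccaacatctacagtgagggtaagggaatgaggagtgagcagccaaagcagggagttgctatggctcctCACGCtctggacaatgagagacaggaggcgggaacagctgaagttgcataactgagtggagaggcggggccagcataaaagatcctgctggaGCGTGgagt
Cyp26a1, chr19:37697770-37697799, plus strand: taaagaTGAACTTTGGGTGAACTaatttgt
All promoters were searched on both strands in the 250 bases before the start, and 32 of the 40 genes had an entry, with 35 promoters in all. GCGTG was found in 5 of these 35 promoters (14.3%: Cyp1a1, Cyp1b1, Cyp2b10, Cyp4v3 and Cyp51) and in 28.2% of all 32851 promoters in the table. ACGTG, the other form of the HIF core, was found in 4 of 35 (11.4%), against 16.6% of all promoters. GCGTG and ACGTG differ in their first letter and so never match at the same place on a strand. TATAAA was found in 14 of 35 P450 promoters (40%), against 12.4% of all promoters. The direct repeat was found in 1 of 35 (2.86%), that of Cyp26a1, and in 7 of the 32851 promoters (0.0213%). Only this exact spelling of the repeat was searched for, so its rarity is that of these letters. Other promoters may hold other forms of the repeat. A match is a run of letters and was not tested as a binding site.

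Of the 47 probe sets, 32 (29 genes) had a mean intensity over all arrays of at least 40.14, the 40th percentile, and were tested, while 15 were too dim to test. At that limit, Cyp3a16 lay just outside with a mean of 39.58 and the Cyp1a1 probe set 161831_at just inside with 43.12. The name of 11 probe sets ends in f, s or r, which on this platform marks probes that may also bind other transcripts. Those tested were probe sets of Cyp2c38, Cyp2d10, Cyp4a10, Cyp4b1, Cyp7b1 and Cyp21a1, whose values may include related sequences. All log2 changes are of log2(intensity + 4.7) and all adjusted p-values are from limma's moderated test with Benjamini-Hochberg adjustment over the 7453 probe sets tested. A probe set is called where its adjusted p is under 0.05.

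The arrays had been scaled to the same level (trimmed mean 199.93 to 199.94, median 60 to 70.9). Of the 29 hepatocyte marker probe sets 28 passed the filter on dim values, with a summed intensity between 76816 and 120400 per array. The Hif1a probe sets did not read lower in the null arrays: 98628_f_at read 1647.1, 1010.5 and 850.0 there and 961.8, 703.2 and 711.2 in the hypoxic wild type. Where these probes lie relative to the deleted part is not given, so they check nothing about the genotype. The hypoxic number 3 arrays stood apart in 18S ribosomal RNA, with a mean log2 intensity of 12.18 and 12.33 against 7.38 to 8.97 on the other hypoxic arrays and 5.98 to 10.25 on the normoxic arrays.

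The largest log2 differences among the tested P450 probe sets lay between the sample numbers. Between hypoxic numbers 3 and 1, with 2 arrays of each number, 16 of the 32 probe sets (50.0%, 15 genes) rose, against 830 of all 7453 tested (11.1%). Only Cyp1a1 fell (3.12% of the members), against 14.5% of all probe sets. Among the 17, Cyp1a1, Cyp8b1 and Cyp26a1 lay under the filter limit on both arrays of 1 of the numbers. The median log2 change of the 32 was 0.55, and that of all probe sets tested was -0.0034. Each of the 17 called members differed in the same direction in wild type and null, which calling on the mean of both favours. Without the null number 3 array 9 probe sets rose instead of 16, and without the null number 1 array Cyp2s1 was called lower beside Cyp1a1, for 2 instead of 1. With each of the 6 hypoxic arrays left out in turn, 7 of the 16 kept their call each time. They were Cyp2b10, both Cyp2d10 probe sets, Cyp26a1, Cyp3a25, Cyp17a1 and Cyp2f2. Cyp26a1 was tested only because of its high number 3 values, so it had to differ, and it is part of these counts. Cyp8b1 lost its call without null number 3, Cyp2a12 and Cyp3a13 without wild-type number 3, Cyp4a12b without null number 1 or 3, and Cyp7b1 without null number 1 or 3 or wild-type number 3. Cyp4a10 and Cyp21a1 lost theirs without wild-type number 2 or any null array, Cyp2d9 also without wild-type number 3, and Cyp3a11 without any hypoxic array but null number 1. The members that rose were 6 of 13 probe sets of family 2, 3 of 3 of family 3, 2 of 6 of family 4, both steroid hormone enzymes tested, 2 of 4 sterol and bile acid enzymes, and the retinoic acid hydroxylase Cyp26a1.

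**Figure D1:**
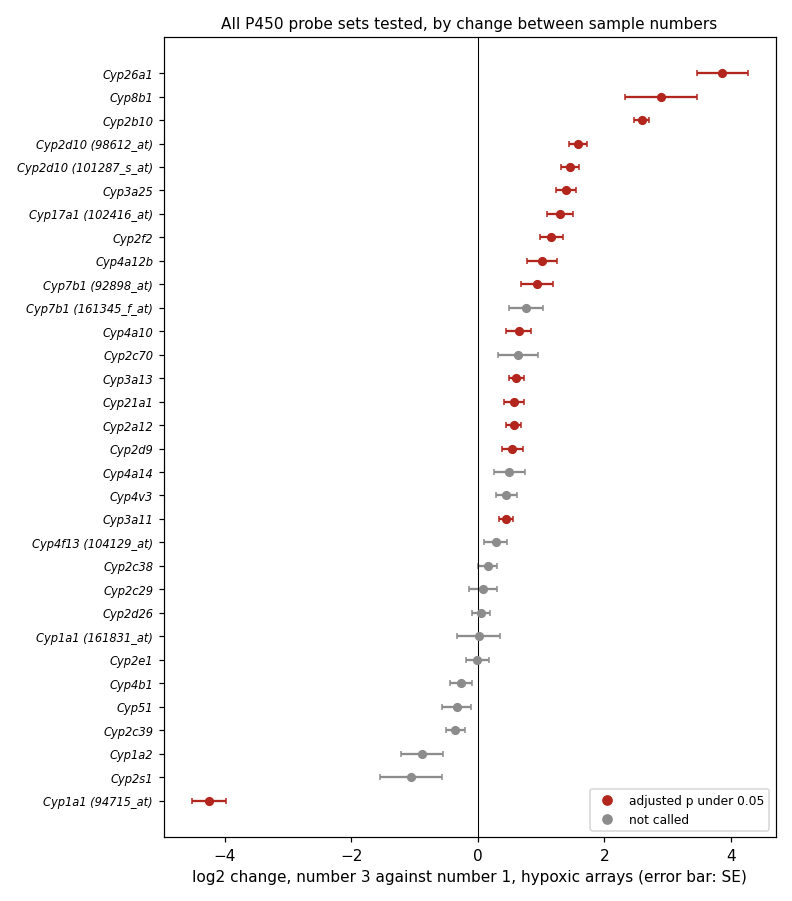
Log2 change of all 32 tested P450 probe sets between hypoxic sample numbers 3 and 1 (x axis), with the standard error as bars and called probe sets in red. Cyp26a1, Cyp8b1 and Cyp2b10 lie farthest to the right, and the Cyp1a1 probe set 94715_at lies alone at -4.25.

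Markers of other cell types moved with the numbers too. Over 35 stellate cell and fibroblast marker probe sets the summed intensity was 26831 to 28925 on hypoxic number 1 arrays, 20079 to 21727 on number 2 and 10029 to 10528 on number 3, and 23 of the 29 tested fell between numbers 1 and 3. Over 8 biliary marker probe sets it was 6599.7 to 6726.3, 4775.6 to 4794.3 and 2522.0 to 2666.9, and 5 of 6 tested fell. Macrophage markers (24 probe sets) summed to 1645.6 to 2137.7 on number 1 and 1186.4 to 1199.3 on number 3, with 4 of 10 tested lower, and endothelial markers (17 probe sets) to 1359.9 to 1554.8 and 707.2 to 774.1, with 2 of 3 lower. No marker probe set was at 0 on any array. Hepatocyte markers went the other way, with sums of 76816 to 80360 on number 1 and 97074 to 109740 on number 3. Of the 28 tested, 13 rose (46.4%) and none fell, where 11.1% of all probe sets rose and 14.5% fell. This share was near the 50.0% of the P450 probe sets, so a rise above that of all probe sets was not particular to the P450s. In such bulk samples, fewer cells of a type and less RNA per cell cannot be told apart. The part of these markers and of 18S RNA in the P450 differences was not tested. On the normoxic arrays the stellate sums were nearly level between the numbers, at 16844 to 17206 for number 1 and 16959 to 18302 for number 2.

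**Figure D2:**
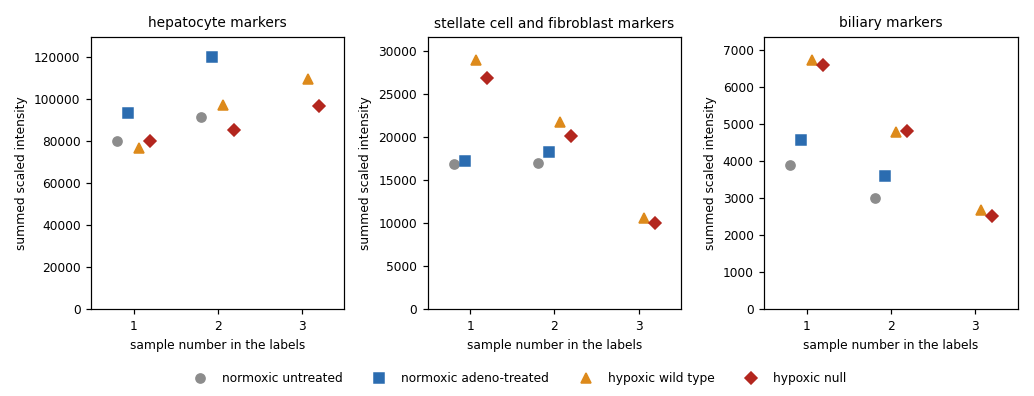
Summed scaled intensity of the hepatocyte, stellate cell and fibroblast, and biliary marker probe sets on each array (y axis, from 0) by sample number (x axis), with a symbol per group. On the hypoxic arrays the stellate sum falls from 26831 to 28925 at number 1 to 10029 to 10528 at number 3, while on the normoxic arrays it stays between 16844 and 18302.

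Cyp1a1, the classical AHR target and an oxidant of aromatic hydrocarbons, fell with the number in every group. Its probe set 94715_at read 400.9, 136.5 and 19.1 on hypoxic wild-type arrays 1, 2 and 3 and 647.2, 120.2 and 26 on the null arrays. It read 432.7 and 98.5 on normoxic untreated arrays 1 and 2 and 502.1 and 233.9 on the adeno-treated ones. All 4 number 1 arrays lay above all 4 number 2 arrays, and both number 3 arrays lay lowest. The log2 change between hypoxic numbers 3 and 1 was -4.25 ± 0.27 (SE, adjusted p = 2.61e-05), that between numbers 2 and 1 was -1.95 ± 0.27 (adjusted p = 0.00525), and that between numbers 3 and 2 was -2.30 ± 0.27 (adjusted p = 0.00136). The number 3 arrays lay under the filter limit of 40.14, so the first and last of these values depend on the offset. With the dim arrays set to that limit, the level was averaged on the log2 scale over wild type and null. It was at least 11.5-fold lower than at number 1 and at least 2.96-fold lower than at number 2. The other Cyp1a1 probe set, 161831_at, was near the filter limit, between 22.7 and 70.9 on all arrays, and did not pass the test (log2 change 0.02 ± 0.34 between numbers 3 and 1), so the probe sets of this gene disagree.

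Cyp1a2, which oxidises aromatic amines and caffeine, was bright and highest on the number 1 arrays of each group. It read 1233.7, 561.0 and 551.5 in the hypoxic wild type and 1099.1, 417.2 and 721.3 in the null. The normoxic untreated arrays read 2372.3 and 591.9, and the adeno-treated ones 1219.9 and 950.4. Between hypoxic numbers 2 and 1 it fell (log2 change -1.26 ± 0.33, adjusted p = 0.0419), and between numbers 3 and 1 it did not pass (-0.88 ± 0.33, adjusted p = 0.0793). The third gene of the family, Cyp1b1, a mostly extrahepatic enzyme of hydrocarbon and oestrogen oxidation, was too dim to test. Its probe set 99979_at read 36.6 to 48.4 on the hypoxic number 1 and 2 arrays, 4.7 and 6.0 on the number 3 arrays and 5.6 to 17.7 on the normoxic ones, and the low values are near the offset of 4.7. With no filter it was called lower between numbers 3 and 1, which brings the count from 1 to 2.

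Cyp2b10, the phenobarbital-induced enzyme that CAR controls, rose in steps with the number in every group. It read 571.7, 1685.0 and 3562.4 on the hypoxic wild-type arrays and 603.9, 1802.9 and 3551.8 on the null arrays. The normoxic untreated arrays read 565.5 and 2024.0, and the adeno-treated ones 655.9 and 2277.8. Arrays of a number lay close together whatever their group, and the 3 numbers did not overlap. Its log2 change was 2.59 ± 0.11 between hypoxic numbers 3 and 1 (SE, adjusted p = 1.03e-05, 6.01-fold), 1.56 ± 0.11 between numbers 2 and 1 (adjusted p = 8.59e-04) and 1.03 ± 0.11 between numbers 3 and 2 (adjusted p = 0.00109). The related Cyp2b9, Cyp2b13 and Cyp2b19 were too dim to test. Cyp2b9 read 7.1 and 34.9, 23.7 and 33.5, 17.5 to 43.0 and 7.2 to 63.5 in the 4 groups, and the other 2 stayed at or under 22.8 on all arrays.

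**Figure D3:**
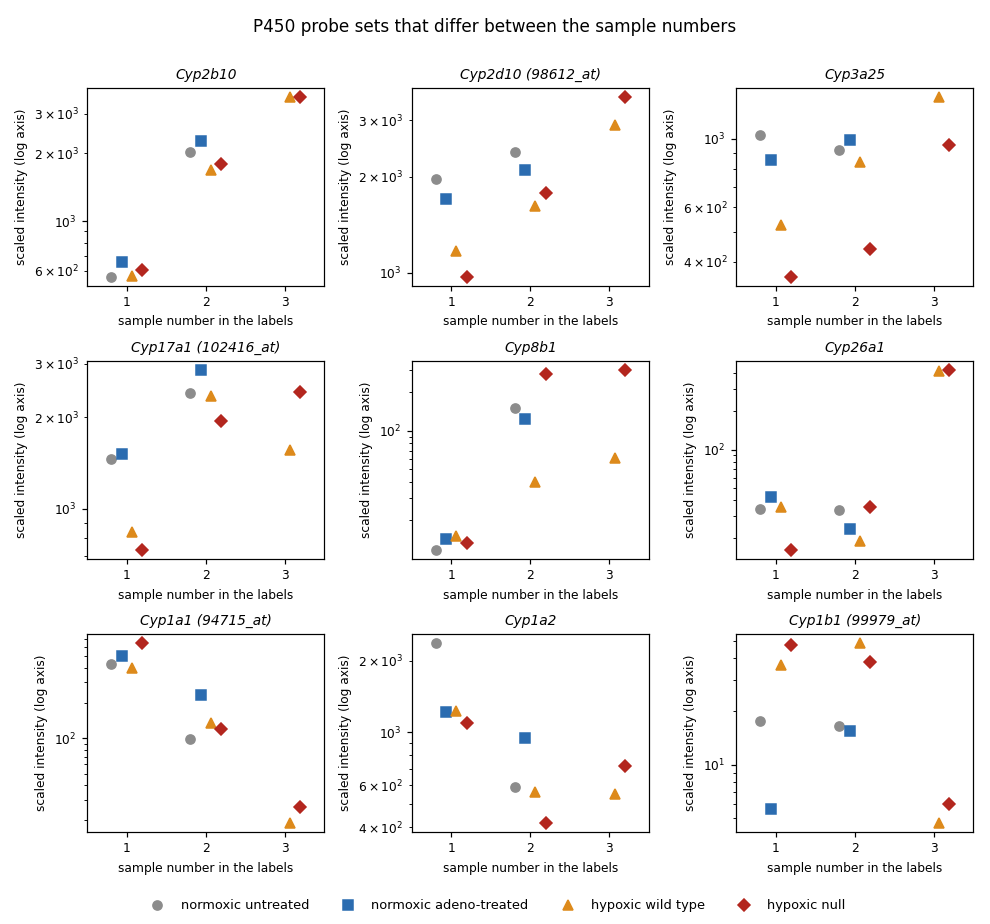
Scaled intensity (log axis) of 9 P450 probe sets on each array by sample number, with a symbol per group. Cyp2b10 runs from 565.5 to 655.9 at number 1 to 3551.8 and 3562.4 at number 3, Cyp1a1 (94715_at) runs from 400.9 to 647.2 down to 19.1 and 26, and Cyp26a1 lies at 415.4 and 420.5 at number 3 and at most at 42.5 elsewhere.

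Elsewhere in family 2, Cyp2d10, a mouse enzyme of the drug-oxidising Cyp2d subfamily, rose on both of its probe sets. The probe set 98612_at read 1169.0, 1621.0 and 2911.4 in the hypoxic wild type and 972.8, 1778.3 and 3549.5 in the null, with 1706.6 to 2394.9 on the normoxic arrays. Its log2 change between numbers 3 and 1 was 1.59 ± 0.14 (adjusted p = 1.16e-04), and that of 101287_s_at was 1.46 ± 0.14 (adjusted p = 1.58e-04). The normoxic arrays thus lay between hypoxic numbers 1 and 3 on the first probe set. Cyp2f2, known for bioactivating naphthalene in the airway, read 536.1, 1226.7 and 1221.4 in the hypoxic wild type and 752.4, 1234.0 and 1659.3 in the null, and rose by 1.16 ± 0.18 between numbers 1 and 3 (adjusted p = 0.00194). On the normoxic arrays it read 1078.3 and 743.8 without adeno and 1190.3 and 1296.6 with it, so the untreated pair ran the other way. Smaller rises were called for Cyp2a12 (0.57, adjusted p = 0.00821) and Cyp2d9 (0.54, adjusted p = 0.0387).

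The Cyp2c genes tested, Cyp2e1 and Cyp2d26 did not pass between numbers 3 and 1. Cyp2e1, the enzyme of ethanol and acetaminophen oxidation, read 352.3, 488.7 and 416.9 in the hypoxic wild type and 319.3, 273.8 and 267.6 in the null, and its log2 change was -0.01 ± 0.18 (95% interval -0.41 to 0.40). The intervals were -0.18 to 0.49 for Cyp2c38, -0.40 to 0.57 for Cyp2c29 and -0.28 to 0.38 for Cyp2d26. Cyp2c70 (0.64 ± 0.32, adjusted p = 0.18) and Cyp2s1 (-1.05 ± 0.49, adjusted p = 0.152) were less precise. Cyp2c39 (-0.36 ± 0.15, adjusted p = 0.116) had an interval of -0.70 to -0.02 and did not pass after adjustment. The epoxygenase genes Cyp2j5 and Cyp2j6 were at or under 6.8 on all arrays and too dim to test.

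All 3 tested members of family 3, the drug- and steroid-oxidising Cyp3a enzymes, rose between hypoxic numbers 1 and 3. Cyp3a25 read 524.9, 838.7 and 1363.2 in the wild type and 357.4, 438.5 and 956.9 in the null, and its log2 change was 1.39 ± 0.15 (adjusted p = 3.19e-04). Its normoxic arrays did not move with the number, at 1027.9 and 920.6 untreated and 853.4 and 987.6 adeno-treated, with a log2 change of 0.03 (95% interval -0.32 to 0.37). Cyp3a13 read 1223.2, 2076.1 and 1997.7 in the wild type and 1074.0, 1743.5 and 1530.9 in the null (0.61 ± 0.12, adjusted p = 0.00553). Cyp3a11, the main PXR-induced enzyme of mouse liver, was the brightest member, at 4307.9 to 6484.1 over the 10 arrays. Its change was small (0.44 ± 0.11, adjusted p = 0.0197, 1.36-fold) and was 0.23, short of the threshold, after quantile normalization.

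In family 4, whose Cyp4a members hydroxylate fatty acids at the chain end and are PPARalpha targets, Cyp4a12b and Cyp4a10 rose. Cyp4a12b read 73.8, 151.8 and 125.5 in the hypoxic wild type and 75.3, 205.8 and 193.7 in the null (1.02 ± 0.24, adjusted p = 0.0126). Cyp4a10 read 140.5, 162.8 and 179.6 in the wild type and 76.5, 111.4 and 152.6 in the null (0.65 ± 0.20, adjusted p = 0.0397). Cyp4a14 was highest at number 2 in both hypoxic groups (63.9, 132.4 and 91.0 in the wild type, 37.5, 77.7 and 55.7 in the null) and was called between numbers 2 and 1 (0.98 ± 0.25, adjusted p = 0.0388) but not between numbers 3 and 1 (0.50 ± 0.25, adjusted p = 0.176). The intensities of Cyp4b1, Cyp4v3 and the Cyp4f13 probe set 104129_at ran from 120.9 to 179.8, 537.4 to 1023.9 and 131.0 to 200.3 over all arrays, and none of the 3 passed.

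Both steroid hormone enzymes bright enough to test rose. Cyp17a1, the 17alpha-hydroxylase of androgen synthesis, read 841.0, 2352.7 and 1559.3 in the hypoxic wild type and 733.8, 1949.3 and 2415.9 in the null on probe set 102416_at. It also read higher at number 2 than at number 1 on the normoxic arrays, at 1455.6 and 2403.4 untreated and 1516.5 and 2855.7 adeno-treated. The log2 change was 1.30 ± 0.20 between hypoxic numbers 3 and 1 (adjusted p = 0.00191) and 1.44 ± 0.20 between numbers 2 and 1 (adjusted p = 0.00539). Cyp21a1, the 21-hydroxylase of adrenal steroid synthesis, read 396.9, 636.3 and 507.7 in the wild type and 332.8, 613.3 and 580.2 in the null (0.57 ± 0.16, adjusted p = 0.0289 between numbers 3 and 1). Cyp11a1, the cholesterol side-chain cleavage enzyme, and the second Cyp17a1 probe set were too dim, at 9.1 to 36.4 and 10.1 to 44.0.

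Cyp8b1, the sterol 12alpha-hydroxylase that sets the share of cholic acid among bile acids, was low on every number 1 array and higher on the others. It read 15.1, 39.5 and 61.0 in the hypoxic wild type and 13.4, 279.6 and 297.1 in the null. The normoxic arrays read 11.8 and 151.4 untreated and 14.4 and 124.0 adeno-treated. The log2 change was 2.90 ± 0.56 between hypoxic numbers 3 and 1 (adjusted p = 0.00569) and 2.57 ± 0.56 between numbers 2 and 1 (adjusted p = 0.0262), and the first was 2.43 and no longer passed without the null number 3 array. The number 1 arrays lay under the filter limit. Against that limit the level, averaged on the log2 scale over wild type and null, was at least 3.14-fold higher at number 3. At number 2 it was at least 2.5-fold higher. The null arrays carry these bounds, which do not hold for the wild type alone. Its number 2 array (39.5) lay under the limit too. Cyp7b1, the oxysterol 7alpha-hydroxylase, read 61.5, 82.2 and 119.6 in the wild type and 32.2, 75.5 and 67.1 in the null on 92898_at (0.93 ± 0.25, adjusted p = 0.0243). Its other probe set, 161345_f_at, missed the threshold (0.76 ± 0.27, adjusted p = 0.0659). Cyp7a1, the rate-limiting enzyme of bile acid synthesis, was too dim to test at 2.3 to 59.7, although each group read lowest on its number 1 array. Cyp51, the lanosterol demethylase of cholesterol synthesis, did not pass (-0.33 ± 0.23, adjusted p = 0.33). Cyp27a1 had no probe set with a single symbol and was not analysed here.

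Cyp26a1, the main hydroxylase that clears retinoic acid, was high on the number 3 arrays alone. It read 415.4 in the wild type and 420.5 in the null at number 3, and 16.3 to 42.5 on the other 8 arrays. The log2 change was 3.86 ± 0.40 between numbers 3 and 1 (adjusted p = 2.07e-04) and 3.78 ± 0.40 between numbers 3 and 2 (adjusted p = 8.53e-04). Its hypoxic number 1 and 2 arrays lay under the filter limit. It was tested only because of the high number 3 values, so it had to differ. Against that limit its number 3 level, averaged on the log2 scale over wild type and null, was at least 9.43-fold higher. As printed above, its promoter holds the spelling of the retinoic acid direct repeat that was searched for. A link between that match and these values was not tested. The vitamin D enzymes Cyp24a1 and Cyp27b1, which break down and activate the hormone, were too dim to test at 1.5 to 22.7 over both Cyp24a1 probe sets and 11.9 to 45.7 for Cyp27b1.

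Between hypoxic numbers 2 and 1, 11 of the 32 probe sets rose (34.4%, 10 genes), against 5.17% of all, and 2 fell (Cyp1a1 and Cyp1a2, 6.25%), against 5.42% of all. Apart from those above, the members that rose were Cyp3a13 (0.73), Cyp2d9 (0.93), Cyp2f2 (0.95), Cyp4a12b (1.2), Cyp21a1 (0.77) and both Cyp2d10 probe sets (0.98 for 101287_s_at and 0.67 for 98612_at). These calls rest on 2 arrays per number, and the count of risers fell to 1 (Cyp2b10) without the wild-type number 2 array, to 3 without the null number 2 array and to 6 without the null number 1 array, and the fallers went to 1 and 0 (Cyp1a1 at -1.60) without the wild-type and the null number 2 array. Without both number 3 arrays, which differ in 18S RNA and in the stellate markers, the counts were again 11 and 2. Between numbers 3 and 2, 5 probe sets rose (15.6%), against 4.71% of all, and Cyp1a1 alone fell, against 6.49% of all. The 5 were Cyp26a1, which had to differ as given above, Cyp2b10, Cyp2d10 (98612_at, 0.92), Cyp3a25 (0.91) and Cyp2a12 (0.67). This count ran from 2 without the null number 2 array to 8 without either number 1 array, and was 3 without the wild-type number 2 or the null number 3 array.

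The normoxic arrays gave a second look at numbers 2 and 1 on other arrays, a comparison chosen after the values were seen. What the numbers stand for is not given, so the same cells may lie behind a number in all groups. Agreement between the groups may thus not be an independent repeat. Of the 13 members called between hypoxic numbers 2 and 1, 11 (84.6%) differed in the same direction in both normoxic groups, the exceptions being Cyp2f2 and Cyp4a14, against 518 of all 789 probe sets so called (65.7%). The test over the 4 normoxic arrays came from the fit to all 10 arrays and shared its spread with the hypoxic arrays. Its p-values are thus not independent of theirs. In it Cyp2b10 rose (log2 change 1.81 ± 0.11, adjusted p = 2.53e-04), 1 member where 0.322% of all probe sets rose. Cyp1a1 fell (94715_at, -1.59 ± 0.27, adjusted p = 0.0382), where 0.47% of all fell, and this call was lost with no filter, with quantile normalization and without the intensity trend. Cyp8b1 had a log2 change of 3.0 ± 0.56 (adjusted p = 0.0547) and Cyp1a2 one of -1.18 ± 0.33 (adjusted p = 0.146). Without the number 3 arrays in the fit, 3 members rose (Cyp2b10, Cyp8b1 and Cyp17a1). The stellate sums of these arrays differed little between the numbers, as given above, with 2 of 29 probe sets lower, while biliary sums were 3899.7 to 4567.7 for number 1 and 2992.0 to 3588.2 for number 2.

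**Figure D4:**
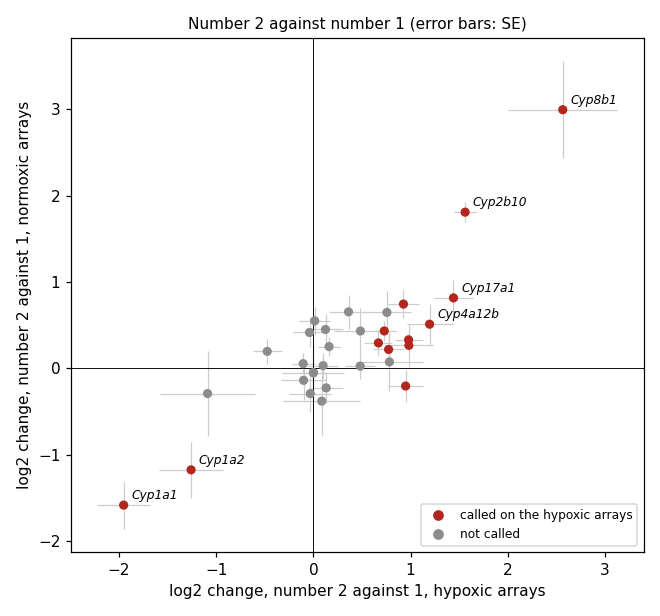
Log2 change between numbers 2 and 1 of the 32 tested P450 probe sets on the hypoxic arrays (x axis) and the normoxic arrays (y axis), with standard errors as bars and those called on the hypoxic arrays in red. Cyp8b1 and Cyp2b10 lie high on both axes, and Cyp1a1 (94715_at) and Cyp1a2 lie low on both.

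Between HIF-1alpha null and wild-type hypoxic cells no P450 probe set was called in either direction (limma), where 0.0% of all probe sets were called higher and 0.0% lower. At an unadjusted p under 0.05, 6 members were lower and 0 higher, against 129 and 130 of all probe sets. The 6 were Cyp2c70, Cyp2c38, Cyp2c29, Cyp2d26, Cyp2e1 and Cyp7b1 (161345_f_at). With the sample number as a replicate block, again no member was called, where 0.0134% of all were higher and 0.0939% lower, and 12 members were lower and 1 higher at an unadjusted p under 0.05, against 342 and 351 of all. In the pairs of arrays with the same number, 14 of the 32 members read lower in the null in 3 of 3 pairs and 2 read higher, against 14.4% and 18.3% of all probe sets tested. The median log2 change of the members was -0.09 and that of all probe sets 0.02. For the 28 hepatocyte marker probe sets tested it was -0.15, with 1 called lower with the block. For the marker lists of other cell types it was -0.07 to -0.12. A median below that of all probe sets was thus not particular to the P450s. Whether these markers bear on the P450 differences was not tested.

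Among the P450 members, Cyp2c70 makes the muricholic acids of rodent bile. It read 284.1, 165.3 and 273.9 in the null against 345.9, 590.5 and 873.9 in the hypoxic wild type, and the groups did not overlap. The log2 change was -1.25 ± 0.32 (95% interval -1.97 to -0.53, adjusted p = 0.626, and 0.0856 with the block). Normoxic arrays read 311.5 to 526.3. Cyp2c38, a member of the arachidonic acid-oxidising Cyp2c subfamily, read 306.4, 317.0 and 336.0 in the null and 474.4, 458.5 and 539.3 in the wild type (-0.61 ± 0.15, adjusted p = 0.554, and 0.0898 with the block). These groups did not overlap either, and all 4 normoxic arrays, at 374.3 to 489.9, lay above the null arrays. The Cyp7b1 probe set 161345_f_at read 42.5, 69.4 and 75.2 in the null and 91.6, 115.2 and 158.8 in the wild type (-0.92 ± 0.31, adjusted p = 0.999). On the other, 92898_at, the change was -0.58 ± 0.37 (adjusted p = 0.999). There the groups overlapped, with null number 2 at 75.5 and wild-type number 1 at 61.5. Cyp7a1, too dim to test, read 2.3, 11.8 and 21.8 against 7.2, 24.4 and 44.8, lower in the null at each number. Cyp8b1 went the other way at numbers 2 and 3, with a log2 difference of 2.69 and 2.20 and of -0.13 at number 1, and did not pass (1.59 ± 1.22, adjusted p = 0.999, and 0.255 with the block). The block changed no call in this comparison.

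**Figure D5:**
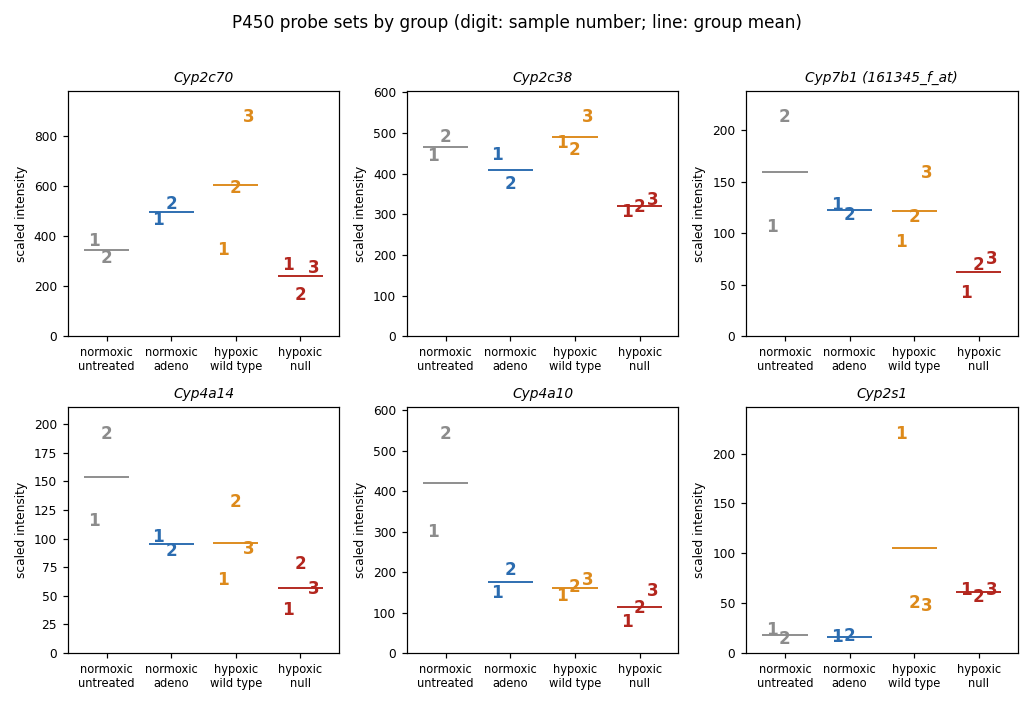
Scaled intensity of 6 P450 probe sets on every array (y axis, from 0) by group, each array drawn as its sample number and the group mean as a line. Cyp2c70 and Cyp2c38 read lower on all 3 null arrays (284.1 and 336.0 at most) than on the hypoxic wild-type arrays, and Cyp2s1 reads 219.8 on wild-type array 1 against 49.9 and 47.5 on arrays 2 and 3.

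Hypoxia itself was compared in the wild type against the normoxic adeno-treated arrays. No P450 probe set was called higher or lower, where 0.322% of all probe sets were higher and 0.0134% lower. At an unadjusted p under 0.05, 1 member was higher and 0 lower, against 338 and 257 of all. With the block no member was called either, where 1.48% of all were higher and 0.725% lower. The member with the smallest p was Cyp2s1, an extrahepatic P450 of epithelia, which read 219.8, 49.9 and 47.5 in the hypoxic wild type against 16.4 and 16.6 in normoxic adeno-treated cells and 23.0 and 13.6 in untreated cells. The hypoxic values all lay above the normoxic ones, but array 1 read far above the other 2. The log2 change was 2.02 ± 0.57 (adjusted p = 0.30), and 2.19 with the block (adjusted p = 0.0525). All normoxic arrays lay under the filter limit of 40.14, so Cyp2s1 was tested only because of its hypoxic values. Against that limit its level, averaged on the log2 scale over the hypoxic wild-type arrays, was at least 1.92-fold higher. The next 4 by p were Cyp2c38 (0.26), Cyp2c29 (0.31), Cyp1a1 (94715_at, -1.65 ± 1.34) and Cyp4b1 (0.24), with adjusted p-values of 0.772 to 0.845. Cyp2c29 turned to -0.03 without normoxic adeno-treated array 2.

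The hypoxic null arrays were set against the same 2 normoxic adeno-treated arrays, so these values share their control with those above and hold genotype and hypoxia together. No member was called without the block, where 0.349% of all probe sets were higher and 0.0939% lower, and at an unadjusted p under 0.05 there were 1 higher and 3 lower, against 386 and 342 of all. With the block 5 members fell (15.6%), against 2.87% of all, and none rose, against 2.94%. They were Cyp3a25 (log2 change -1.17, adjusted p = 0.00789), Cyp2a12 (-0.54, 0.0317), Cyp7b1 (161345_f_at, -1.13, 0.0331), Cyp2c70 (-1.27, 0.0384) and Cyp4a10 (-0.80, 0.0471). The other Cyp7b1 probe set, 92898_at, did not pass in this fit (-0.74, adjusted p = 0.102). Against the same controls with the block, the wild-type values of the 5 called probe sets were -0.50, -0.18, -0.21, -0.02 and -0.27. The block takes the change with the number to be the same in all groups, and number 3 has no normoxic array. Between numbers 2 and 1, the hypoxic log2 changes of the 5, in that order, were 0.48, -0.11, 0.48, -0.0005 and 0.36. The normoxic ones were 0.03, 0.05, 0.43, -0.05 and 0.65. The 5 calls rest on that assumption, since none was made without the block. The 5 calls became 0 without either normoxic adeno-treated array, 1 (Cyp3a25) without the wild-type number 3, null number 2 or null number 3 array, and 2 without the wild-type number 2 array. In the same fit 10 of 28 hepatocyte marker probe sets were lower (median -0.39), and 2 of 6 biliary and 2 of 29 stellate and fibroblast ones were higher (medians 1.07 and 0.37). The hepatocyte sums were 80360 to 97074 on the null arrays and 93470 to 120400 on the normoxic adeno-treated ones, the biliary sums 2522.0 to 6599.7 and 3588.2 to 4567.7, and the stellate sums 10029 to 26831 and 17206 to 18302. The part of these markers in the P450 falls was not tested. Cyp2s1 read 62.8, 56.6 and 63.0 in the null, above all normoxic arrays (1.63 ± 0.57, adjusted p = 0.366, and 1.79 with the block, adjusted p = 0.0643).

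Adeno treatment of normoxic cells gave no P450 call, where 0.0% of all probe sets were higher and 0.0% lower. At an unadjusted p under 0.05, 2 members were lower and 0 higher, against 310 and 309 of all, and with the block there was again no call, where 0.107% of all were higher and 0.134% lower. The smallest p was that of Cyp4a10, which read 298.7 and 542.2 in untreated and 147.3 and 204.2 in adeno-treated cells (-1.19 ± 0.36, 2.29-fold lower, adjusted p = 0.494, and 0.0567 with the block). The groups did not overlap, and all 6 hypoxic arrays, at 76.5 to 179.6, lay below both untreated arrays. Cyp2d26, of the drug-oxidising Cyp2d subfamily, read 999.8 and 1212.1 against 661.4 and 717.4 (-0.67 ± 0.26, adjusted p = 0.555). The next by p were Cyp51 (-0.44), Cyp3a11 (0.34) and Cyp4a14 (-0.62), with adjusted p-values of 0.69 to 0.721.

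Lists of genes that work with or control the P450s were counted between hypoxic numbers 3 and 1, where 11.1% of all probe sets rose and 14.5% fell. Of 30 probe sets tested for nuclear receptors and other regulators, 8 rose (26.7%) and 2 fell (6.67%), with a median log2 change of 0.38 against -0.0034 over all. Nr1i2 (PXR) read 89.6, 164.2 and 183.4 in the wild type and 107.2, 153.0 and 243.6 in the null (1.07 ± 0.20, adjusted p = 0.00412). Nr1i3 (CAR) read 133.4, 138.9 and 196.0 in the wild type and 100.1, 186.0 and 183.5 in the null on 102171_r_at (0.69 ± 0.21, adjusted p = 0.0431). The suffix of this probe set marks probes that may also bind other transcripts. Its other 2 tested probe sets, 104506_at and 104507_g_at, did not pass (0.42, adjusted p = 0.149, and 0.28, adjusted p = 0.334). Ppara, Hnf4a, Rora, Nr5a2, Stat5a and Rxra rose as well, by 0.52 to 1.2, and Foxa2 and Cebpa fell by 1.24 and 0.49. Ahr, the receptor for Cyp1a1, did not pass (0.36 ± 0.25, adjusted p = 0.321). It read 57.5, 57.0 and 73.0 in the null and 135.2, 86.4 and 181.0 in the hypoxic wild type (-1.0, adjusted p = 0.71), below all other arrays. Of the 7 probe sets tested for other AHR targets, 2 fell between numbers 1 and 3 (Slc7a5, an amino acid transporter, by 1.14, and Ugdh, which makes UDP-glucuronic acid, by 0.59), and none rose.

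Of 11 probe sets for other bile acid synthesis and transport genes, 7 rose (63.6%) and none fell (median 1.09). They included both of the bile acid uptake carrier Slc10a1 (3.05 and 2.36), Abcb4 (1.36), Slc27a5 (1.09) and Hsd3b7 (0.76). Of 16 for electron transfer and heme supply, 4 rose (25%) and none fell (median 0.12): Urod (0.71), Hmox1 (0.62), Alas1 (0.54) and Pgrmc1 (0.45). Among 17 for other PPARalpha targets, 4 rose (23.5%), with Ehhadh highest at 1.65, and 2 fell (11.8%), Angptl4 and Vnn1, by 0.78 and 0.71. For sterol synthesis, 3 of 19 rose (15.8%) and 2 fell (10.5%), near the shares of all probe sets, and for retinoid genes, 2 of 7 rose (Rbp4, 0.58, and Ttr, 0.47). In the hypoxic wild type against normoxic adeno-treated cells, Tiparp, an AHR-induced ADP-ribosyltransferase, was the single gene of these 7 lists that was called (1.32, adjusted p = 0.040), and in the null against the same controls Tiparp (1.29) and Hsd17b4 (-1.19, adjusted p = 0.044) were. With the block, where 1.48% of all probe sets rose and 0.725% fell, 2 of 7 other AHR targets and 1 of 16 electron transfer and heme probe sets rose in the wild-type comparison, while 2 of 11 bile acid genes, 1 of 17 PPARalpha targets and 1 of 30 regulators (Cebpa, -0.88) fell. In the null comparison with the block, where 2.87% of all fell and 2.94% rose, the probe sets that fell were 4 of 30 for regulators (Cebpa, Nr1h3, Nr1h4 and Nr5a2), 5 of 11 for bile acid genes, 2 of 7 for retinoid genes, 1 of 19 for sterol synthesis and 1 of 17 for PPARalpha targets. Those that rose were 2 of 7 for AHR targets, 1 of 17 for PPARalpha targets and 1 of 16 for electron transfer and heme supply.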

How the data were processed

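Each value is the intensity of a probe set on a linear scale, as deposited by the authors in 1 table with 10 array columns. The sources used here do not name the software behind the values. The same trimmed mean on every array shows a scaling, and no depth can be given for arrays, whose number limits the precision. Groups and numbers came from the sample titles. Gene names came from the platform annotation, where 10855 probe sets carry 1 symbol, 396 several and 1237 none, and 10839 of the 10855 matched RefSeq's GRCm38.p6 gene table, used for names only.

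Left out were 66 control probe sets and the dimmest by mean intensity (below the 40th percentile), which kept 7453. Values were log2(intensity + 4.7), the offset being the 10th percentile of all values. limma 3.58.1 in R 4.3.3 (lmFit, eBayes with an intensity trend, two-sided, Benjamini-Hochberg over all probe sets tested) was fitted to all 10 arrays, with 4 group means for the group comparisons and, for the numbers, added terms for hypoxic numbers 2 and 3 and normoxic number 2. The fit for the numbers had 3 residual degrees of freedom. Different probe sets of a gene were kept apart. The procedure was tested on simulated data.

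The deviations of the 13 pairs of arrays with the same number in different groups correlated at 0.10 to 0.68. The 3 hypoxic pairs lay at 0.54 to 0.68 and the 10 with a normoxic array at 0.10 to 0.38. Pairs with different numbers lay at -0.51 to -0.16 (6 hypoxic) and -0.38 to 0.25 (18 with a normoxic array). The ranges thus overlap where a normoxic array takes part. The numbers, which come from the titles, were still read as pairing the arrays. The fit with the number as a covariate (the replicate block) is given where it changes a call. That fit takes the change with the number to be the same in all groups.

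The members, the gene lists and the comparisons were chosen with earlier results of these data known. Named with values were the members past the threshold in any comparison, with or without the block, the 5 of smallest p in each, a fixed set of 14 well-studied P450s, and in the other lists the members past the threshold or up to 4 of smallest p. The tests over numbers 2 and 1 of the normoxic arrays, the fits of the numbers without the number 3 arrays and the block with an array left out were added after the values were seen. Other alternatives were the offset, the filter, quantile normalization, no intensity trend, the arrays in the fit and leaving out each array.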

Additional observations from a re-analysis of the deposited data

How the results depend on the processing

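Without the replicate block, the count of P450 probe sets called was 0 under every alternative run for the 4 comparisons between groups, in both directions. With the replicate block, the hypoxic null against normoxic adeno-treated comparison gave 5 lower, and with an array left out as well this count ran from 0 to 5, with intermediate values of 1, 2 and 4. The block with an array left out gave at most 1 call in the other group comparisons: Cyp2s1 higher in the hypoxic wild type, and also in the null, against normoxic adeno-treated cells, Cyp8b1 higher and Cyp2c70 lower in the null against the wild type, and Cyp4a10 lower with adeno treatment. The block changed no other call between groups. Between hypoxic numbers 3 and 1, the probe sets that fell were 2 with no filter (Cyp1b1 added, since more probe sets were tested) and 2 with only the 6 hypoxic arrays in the fit (Cyp1a2 added); leaving out an array gave 9 to 15 higher and 1 to 2 lower. Between numbers 2 and 1, 6 rose with no intensity trend, and 1 fell with no filter or no intensity trend; leaving out an array gave 1 to 11 higher and 0 to 2 lower. Between numbers 3 and 2, 2 fell with no filter, and leaving out an array gave 2 to 8 higher. Between normoxic numbers 2 and 1, 0 fell with no filter, with quantile normalization or with no intensity trend, and 3 rose without the number 3 arrays. The block turned the sign of 8 of the 32 members in the hypoxic wild type against normoxic adeno-treated cells and of 5 in the null against them, Cyp26a1 and Cyp2b10 in both, none of them called in either fit. Among the members past the threshold or of the 5 smallest p in a comparison, the only change of sign was that of Cyp2c29 in the hypoxic wild type against normoxic adeno-treated cells, from 0.31 to -0.026 without normoxic adeno-treated array 2, against 0.64 without array 1. The cause of these changes was not tested. The 15 dim P450 probe sets, Cyp7a1 and Cyp1b1 among them, and the low arrays of Cyp1a1, Cyp8b1, Cyp26a1 and Cyp2s1 lie near background, where an offset of 4.7 understates differences.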
